A study of Mus musculus with 168 samples.

Results

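This comparison sets the cortex of heterozygous Q175 knock-in mice against the cortex of heterozygous Q20 knock-in mice at 10 months of age. Its 16 libraries were those whose labels give cortex, that age and either genotype: 8 Q175 and 8 Q20, with 4 females and 4 males on each side, out of 168 libraries in the series. Both groups are C57BL/6 mice with 1 unmodified huntingtin gene (Htt) and 1 knock-in copy, and the labels give the CAG length of that copy as 175 or 20. The whole series measured polyadenylated RNA of the cortex at 2, 6 and 10 months in wild-type mice and in 6 knock-in genotypes, Q20, Q80, Q92, Q111, Q140 and Q175. Q175 mice were housed with Q175 mice, and Q20 and wild-type mice with Q20 mice, so the allele and the housing cannot be told apart. The labels do not say whether a library came from 1 mouse or from pooled tissue, so the p-values measure the spread between these libraries.

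Huntingtin is a large scaffold protein that takes part in vesicle transport and in the control of transcription. Expansion of the CAG repeat in its first coding exon causes Huntington's disease, in which striatal projection neurons and the cortical neurons that send axons to them are the most vulnerable cells. The knock-in copy sits at the gene's own locus and is transcribed from the Htt promoter. Transcripts for neuropeptides, ion channels, receptors and cAMP signalling proteins are known to fall in the striatum of such mice. The comparison asks which cortical transcripts differ between mice with a long and a short repeat in 1 copy of Htt.

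The repeat is short in the mouse reference sequence. The first 120 bases of the Htt coding sequence on chromosome 5 (GENCODE M21, build GRCm38, transcript Htt-201, gene at positions 34761740 to 34912534 on the plus strand) are printed to show where the allelic difference lies, with the run of CAG and CAA codons in capitals:
Htt: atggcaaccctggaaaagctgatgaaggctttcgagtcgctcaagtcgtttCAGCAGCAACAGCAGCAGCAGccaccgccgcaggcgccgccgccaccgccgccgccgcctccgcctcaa
The run starts at codon 18 and has 7 codons, 6 of them CAG and 1 CAA, in a coding sequence of 9363 bases. The Q20 and Q175 alleles differ by label in the length of this run, and their own sequences were not analysed here.

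Htt transcript was lower in Q175. Its level was 131 to 166 CPM (median 159) in Q175 and 146 to 213 (median 207) in Q20, where CPM is the estimated count scaled to the library total and corrected for composition. The groups overlapped through 1 low Q20 library, male 2, at 146 CPM. The log2 difference was -0.33 ± 0.0815 (SE; adjusted p = 0.00458). Q140 differed from Q20 by -0.27 (adjusted p = 0.323) and wild type by -0.02 (adjusted p = 1), and neither passed the test. Other mice of 6 months differed by -0.43 (adjusted p = 6.82e-12), those of 2 months by -0.36 without passing the test (adjusted p = 0.716), and the difference did not pass the test of a change between ages (adjusted p = 0.707 from 6 to 10 months). These tables count reads over the whole gene and do not separate the 2 copies.

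The 16 libraries held 31271733 to 43744138 estimated counts. The Q20 library male 2 had the lowest median correlation with the other libraries of its age among the 16 (0.9862), and the other 15 lay between 0.9892 and 0.991. Excitatory cortical markers were abundant in both groups, Slc17a7 at 875 to 956 CPM (median 926) in Q175 and 937 to 1060.1 (median 1004) in Q20 and Tbr1 at means of 117 and 123 CPM in Q175 and Q20. The most specific markers of striatal neurons were low, with Drd2 at means of 0.994 and 1.34 CPM and Adora2a at 2.95 and 3.06 CPM in Q175 and Q20. Choroid plexus transcripts were uneven between libraries and are described with the genes they move with.

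Across the 17219 genes with enough counts to test, 495 (2.87%) were higher and 815 (4.73%) were lower in Q175, 1310 in all (7.61%), at an adjusted p under 0.05 in edgeR's quasi-likelihood test. In 384 genes (2.23%) all 8 Q175 libraries lay outside the range of the 8 Q20 libraries. Most differences were small: the median size was 0.192 on the log2 scale among higher genes and 0.295 among lower genes, against 0.074 among all genes tested. A difference of at least 2-fold was reached by 12 higher and 68 lower genes. The share of higher and lower calls depended on the scaling. The scaling factors for composition were 1.007 to 1.03 in Q175 and 0.987 to 1.011 in Q20. Higher genes made up 37.8% of all calls, 60.8% with library totals in their place, 59.7% with limma on log2(FPKM + 0.1) and 36.9% with limma once each library was centred on its median. None of the 166 named genes that passed the test changed direction under any alternative run. They were picked for passing, and the alternatives reuse the same libraries, so this is not separate support. Among all 1310 calls, 3 had the opposite sign with limma on log2(FPKM + 0.1) and 2 with limma once each library was centred. Without the 6 libraries of lowest correlation at this age, of which the Q20 library male 2 is 1, a choice made after seeing the data, 908 genes were higher and 1182 lower.

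**Figure D1:**
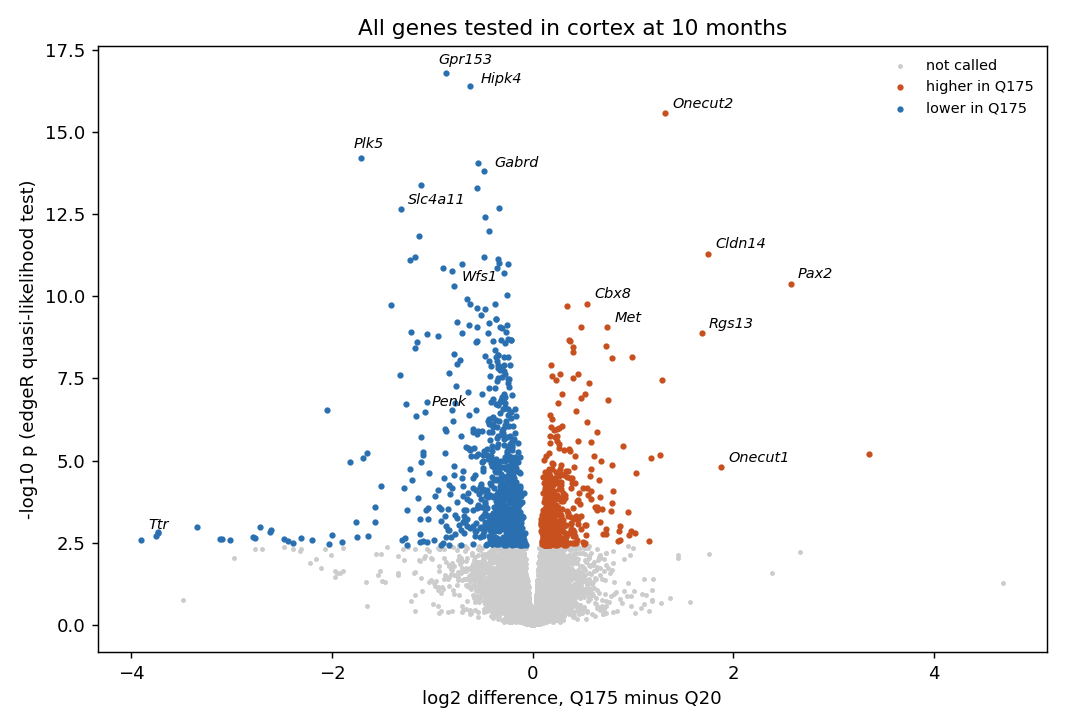
Each point is 1 gene tested in the cortex at 10 months, with the log2 difference of Q175 minus Q20 on the x axis and -log10 of the unadjusted p on the y axis. The 495 higher genes are orange, the 815 lower genes blue and genes that did not pass the test grey. Gpr153, Hipk4, Onecut2 and Plk5 stand at the top, and the lower genes of largest difference at the left edge, such as Ttr, have low -log10 p.

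The 15 lower genes of smallest p fell by 0.33 to 1.71 on the log2 scale, and in all 15 the Q175 and Q20 libraries did not overlap (2.23% of all genes). They were called whichever of the 16 libraries was left out. Genes picked for the smallest p tend to have both traits, so neither is separate support. Gpr153, an orphan G protein-coupled receptor, led this group. It was at 10.5 to 13.9 CPM (median 11.8) in Q175 and 17.9 to 24.2 (median 21.2) in Q20, so that every Q175 library lay below every Q20 library, with a log2 difference of -0.86 ± 0.0696 (SE; adjusted p = 2.81e-13). Plk5, a member of the polo-like kinase family expressed in neurons, had the largest fall of the 15. Plk5 was at 3.81 to 6.80 CPM (median 4.62) in Q175 and 11.9 to 22.1 (median 16.6) in Q20, a log2 difference of -1.71 ± 0.157 (SE; adjusted p = 2.71e-11). Hipk4, a homeodomain-interacting protein kinase, was at 37.4 to 45.4 CPM (median 41.7) in Q175 and 57.4 to 69.3 (median 64.6) in Q20. Its log2 difference was -0.62 ± 0.0512 (SE; adjusted p = 3.45e-13). The groups were apart here too.

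Several of the leading lower genes act at synapses or in calcium signalling. Gabrd encodes the delta subunit of extrasynaptic GABA-A receptors and was at 45.3 to 51.1 CPM (median 47.9) in Q175 and 62.9 to 73.6 (median 66.4) in Q20, a difference of -0.49 ± 0.0469 (SE; adjusted p = 4.30e-11). Gsg1l encodes an auxiliary subunit of AMPA receptors. It was at 61.6 to 67.05 CPM (median 64.1) in Q175 and 79.5 to 100.4 (median 85.98) in Q20, a difference of -0.44 ± 0.0472 (SE; adjusted p = 1.43e-09), and the highest Q20 library stood apart from the other 7. Camkk2, a kinase that activates the calcium/calmodulin-dependent kinases I and IV and AMPK, was at 207 to 234 CPM (median 212) in Q175 and 256 to 279 (median 272) in Q20, a difference of -0.33 ± 0.0342 (SE; adjusted p = 3.84e-10). Camk2n1, an inhibitor of CaMKII, was at 1365 to 1642 CPM (median 1525) in Q175 and 1944 to 2386 (median 2109) in Q20, a difference of -0.49 ± 0.056 (SE; adjusted p = 6.79e-09). Arpp21, a cAMP-regulated phosphoprotein, was at 293 to 321 CPM (median 305) in Q175 and 374 to 414 (median 387) in Q20, a difference of -0.34 ± 0.0394 (SE; adjusted p = 7.27e-09). In all 5 every Q175 library lay below every Q20 library.

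The other leading lower genes were Lamp5, a membrane protein that marks a class of interneurons and upper-layer cells (-0.55), Gpr83, a G protein-coupled receptor (-0.54), Stard8, a GTPase-activating protein (-0.48), Slc4a11, a membrane transporter (-1.32), Arr3, the cone arrestin (-1.11), Tnfrsf8, the receptor CD30 (-1.13), and Myh7, a slow myosin heavy chain (-1.18). Lamp5 was at 129 to 158 CPM (median 149.8) in Q175 and 202 to 249 (median 211) in Q20. Myh7 was at 4.06 to 6.97 CPM (median 4.65) in Q175 and 9.11 to 13.2 (median 11.5) in Q20. Arr3 was near 1 CPM, at 0.647 to 1.001 CPM (median 0.828) in Q175 and 1.55 to 2.19 (median 1.76) in Q20. In each of the 3 the groups were apart.

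The 15 higher genes of smallest p rose by 0.34 to 2.57 on the log2 scale, and in 14 of them the groups did not overlap. That count, too, follows in part from the choice by p. Onecut2, a cut-homeodomain transcription factor and the gene of smallest p among them, was at 10.2 to 15.5 CPM (median 13.4) in Q175 and 3.76 to 6.14 (median 5.19) in Q20, a difference of 1.32 ± 0.114 (SE; adjusted p = 1.51e-12). Pax2, a paired-box factor of the embryonic midbrain, hindbrain and kidney, was at 0.698 to 2.13 CPM (median 0.936) in Q175 and 0.0590 to 0.326 (median 0.181) in Q20, a difference of 2.57 ± 0.313 (SE; adjusted p = 2.76e-08). Pax2 stayed near 1 CPM in Q175, and its 2 highest libraries were females 4 and 3 at 1.82 and 2.13 CPM. Cbx8, a chromobox protein of Polycomb repressive complex 1 that binds methylated histone H3, was at 9.49 to 12.5 CPM (median 10.98) in Q175 and 6.84 to 8.09 (median 7.48) in Q20, a difference of 0.54 ± 0.0691 (SE; adjusted p = 9.31e-08). Sfmbt2, a Polycomb-family protein, differed by 0.73. Of 28 Polycomb group genes, a list that holds Cbx8 but not Sfmbt2, 2 rose and 1 fell (median 0.027).

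Polr2a encodes the largest subunit of RNA polymerase II and was at 87.4 to 103 CPM (median 93.6) in Q175 and 59.4 to 84.04 (median 73.9) in Q20, a difference of 0.36 ± 0.0505 (SE; adjusted p = 6.26e-07). Met, the receptor of hepatocyte growth factor, was at 7.33 to 10.05 CPM (median 8.01) in Q175 and 4.04 to 6.16 (median 4.68) in Q20, a difference of 0.75 ± 0.101 (SE; adjusted p = 3.22e-07). Enpp6, an enzyme that cleaves choline phospholipids and marks oligodendrocytes as they form, was at 7.16 to 8.31 CPM (median 7.65) in Q175 and 2.49 to 5.28 (median 4.85) in Q20, a difference of 0.79 ± 0.116 (SE; adjusted p = 1.66e-06). Every Q175 library lay above every Q20 library for these 3 genes. Cldn14, a claudin of tight junctions, was at 0.625 to 1.19 CPM (median 0.885) in Q175 and 0.226 to 0.296 (median 0.265) in Q20, a difference of 1.75 ± 0.199 (SE; adjusted p = 6.15e-09). Rgs13, a regulator of G protein signalling, was at 0.688 to 1.33 CPM (median 0.936) in Q175 and 0.159 to 0.472 (median 0.293) in Q20 and differed by 1.68. The others named here were Slc45a3 (0.99), a membrane transporter and the member whose groups overlapped, Asl (0.40), the urea cycle enzyme argininosuccinate lyase, Cntn6 (0.40), a contactin adhesion protein, Gng4 (0.38), a G protein gamma subunit, and Dpysl3 (0.34), a protein of growing axons.

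Among higher genes with a mean of at least 1 CPM in a group, those with the largest difference were Pax2, Onecut2, Slc45a3, Sspo (0.96, adjusted p = 0.00932), which encodes the giant secreted protein SCO-spondin, and Depp1 (0.96, adjusted p = 0.0306). The Sspo call was lost without the Q175 library male 1 (adjusted p = 0.0685), and the Depp1 call in 8 of the 16 cases.

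**Figure D2:**
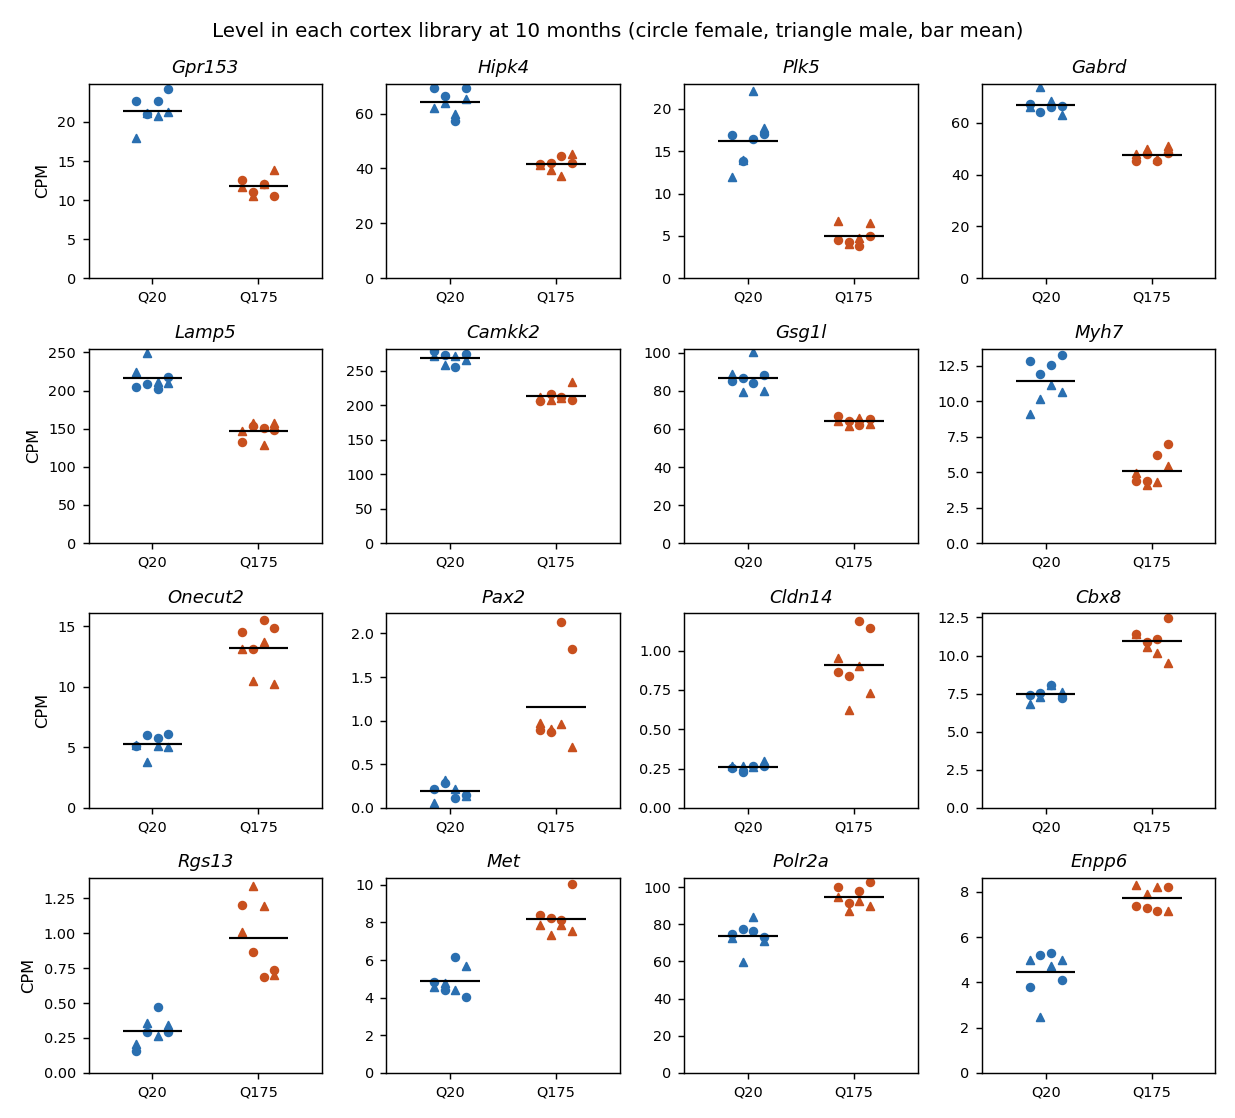
Levels in CPM (y axis, from 0) of 8 leading lower and 8 leading higher genes in each library of Q20 (blue) and Q175 (orange), with circles for females, triangles for males and a bar at the mean of 8. In all 16 panels the Q175 points lie outside the range of the Q20 points, as for Gpr153 at 10.5 to 13.9 CPM against 17.9 to 24.2 CPM.

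Groups of genes were read from lists of markers and pathways by the number of members that passed the test in each direction, beside 2.87% higher and 4.73% lower of all genes and a median log2 difference of 0.000833 over all genes tested. In bulk tissue, fewer cells of a type and less RNA per cell cannot be told apart. In the list of cAMP, calcium and opioid signalling, with 44 members tested, 14 fell, 1 rose and 29 did not pass the test (median -0.093). The members that fell include kinases, phosphatases and their regulators: Camk2a, the alpha subunit of CaMKII, was at 2394 to 2639.97 CPM (median 2560.03) in Q175 and 2892 to 3604 (median 3139) in Q20, a difference of -0.33 ± 0.0385 (SE; adjusted p = 8.57e-09), with no overlap. Ppp1r1b, the dopamine-regulated phosphatase inhibitor DARPP-32, was at 43.1 to 62.3 CPM (median 47.6) in Q175 and 71.5 to 83.1 (median 74.3) in Q20, a difference of -0.64 ± 0.0849 (SE; adjusted p = 3.05e-07). Itpka, an inositol trisphosphate kinase, fell by 0.42 (adjusted p = 2.50e-06), and the calcineurin subunit Ppp3ca fell by 0.16 (adjusted p = 0.00309). Prkacb, a catalytic subunit of protein kinase A, was the member that rose, by 0.14 (adjusted p = 0.00737). With library totals as scaling 10 members fell and 2 rose, and with the choroid plexus level as a covariate 11 fell and 0 rose.

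Of 24 striatal projection neuron markers, 4 fell and 0 rose (median -0.180). These were Ppp1r1b, the enkephalin precursor Penk, the sodium channel subunit Scn4b and the small GTPase Rasd2. Penk was at 14.3 to 23.4 CPM (median 18.9) in Q175 and 27.1 to 54.5 (median 36.7) in Q20, a difference of -1.08 ± 0.182 (SE; adjusted p = 3.88e-05), and no Q175 library reached the lowest Q20 library. Scn4b was at 68.96 to 97.4 CPM (median 78.4) in Q175 and 93.98 to 119 (median 111) in Q20, a difference of -0.48 ± 0.0696 (SE; adjusted p = 1.47e-06), with overlapping groups. Rasd2 was at 44.5 to 61.7 CPM (median 49.2) in Q175 and 59.97 to 68.7 (median 63.6) in Q20, a difference of -0.35 ± 0.0508 (SE; adjusted p = 1.46e-06), also with overlap. The dopamine receptors Drd1 (-0.16, adjusted p = 0.495) and Drd2 (-0.45, adjusted p = 0.545) and the phosphodiesterase Pde10a (-0.12, adjusted p = 0.714) did not pass the test, nor did Adora2a (-0.06, adjusted p = 0.947). The Q20 means of the 4 genes that fell were 39.8 to 109 CPM.

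Of 17 upper-layer markers 6 fell and 0 rose (median -0.138), whereas of 20 deep-layer markers 2 fell and 0 rose (median 0.005). The difference between these shares was not tested. Of 12 general excitatory markers 3 fell and 0 rose (median -0.078), among them Camk2a, while the calls of Baiap2 (-0.20, adjusted p = 0.0308) and the glutamate vesicle transporter Slc17a7 (-0.12, adjusted p = 0.0489) were lost in 8 and 15 of the 16 cases when 1 library was left out. Wfs1, an endoplasmic reticulum membrane protein, was at 42.9 to 59.8 CPM (median 53.8) in Q175 and 77.4 to 101 (median 92.1) in Q20, a difference of -0.78 ± 0.0942 (SE; adjusted p = 3.17e-08). Rasgrf2, a Ras exchange factor, fell by 0.32 (adjusted p = 6.25e-07) and Otof, an otoferlin calcium sensor, fell by 0.84 (adjusted p = 4.06e-06). The layer factors Cux2 (-0.14, adjusted p = 0.263) and Rorb (-0.05, adjusted p = 0.702) did not pass the test. In the deep-layer list Cplx3, a complexin, fell by 0.30 (adjusted p = 0.00152) and Oprk1, the kappa opioid receptor, fell by 0.59 (adjusted p = 0.00841), while Fezf2 (0.03, adjusted p = 0.875) and Tle4 (0.00, adjusted p = 0.984) did not pass.

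Of 24 interneuron markers 5 fell and 0 rose (median -0.110). Npy, the peptide of a class of somatostatin cells, was at 44.3 to 50.7 CPM (median 46.6) in Q175 and 50.2 to 70.4 (median 55.9) in Q20, a difference of -0.26 ± 0.0596 (SE; adjusted p = 0.00202). Dlx1, an interneuron transcription factor, fell by 0.19 (adjusted p = 0.0023) and its groups did not overlap. Vip fell by 0.21 (adjusted p = 0.018) and did not pass once the Q20 library male 2 was left out (adjusted p = 0.0601). Gad1 (-0.12, adjusted p = 0.0473) and Kcnc1 (-0.19, adjusted p = 0.0281) each lost their call when 1 library was left out, in 12 and 6 of the 16 cases. Pvalb (-0.09, adjusted p = 0.578), Sst (-0.24, adjusted p = 0.0936) and Gad2 (-0.02, adjusted p = 0.923) did not pass the test. Of 25 neuropeptides and secretogranins 6 fell and 2 rose (median -0.152). The peptides that rose were Adcyap1, the precursor of PACAP, by 0.33 (adjusted p = 0.0011), and the secretory chaperone Scg5 by 0.20 (adjusted p = 0.0023). Chgb, a secretory granule protein, fell by 0.17 (adjusted p = 9.17e-04).

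Among channels and receptors, 10 of 57 potassium channel genes fell and 0 rose (median -0.065). Kcnip2, a subunit of A-type potassium channels, was at 80.5 to 101 CPM (median 93.1) in Q175 and 113 to 124 (median 120.02) in Q20, a difference of -0.37 ± 0.0486 (SE; adjusted p = 2.14e-07), with no overlap. Kcnh4 fell by 0.56 (adjusted p = 3.22e-07) and Kcna1 fell by 0.21 (adjusted p = 0.00529). Of 31 glutamate receptor genes and AMPA receptor partners 7 fell and 1 rose (median -0.023). Nptx2 and its receptor Nptxr, pentraxins that cluster AMPA receptors, both fell: Nptx2 was at 16.5 to 24.5 CPM (median 21.9) in Q175 and 26.1 to 36.9 (median 31.000) in Q20, a difference of -0.54 ± 0.099 (SE; adjusted p = 1.16e-04), and Nptxr was at 566 to 643 CPM (median 597) in Q175 and 698 to 825 (median 783) in Q20, a difference of -0.39 ± 0.0552 (SE; adjusted p = 6.47e-07). Grm3, a metabotropic receptor, fell by 0.25 (adjusted p = 1.58e-06). Of 34 presynaptic and postsynaptic genes 7 fell and 1 rose (median -0.049), or 4 and 2 with library totals as scaling. The complexin Cplx2 was at 858 to 963 CPM (median 919.7) in Q175 and 1013 to 1151 (median 1091) in Q20, a difference of -0.25 ± 0.0345 (SE; adjusted p = 6.08e-07), and Snap25, a vesicle fusion protein, was at 2258 to 2740.1 CPM (median 2564) in Q175 and 2791 to 3185 (median 2947) in Q20, a difference of -0.21 ± 0.0567 (SE; adjusted p = 0.0103). Sv2a, the synaptic vesicle protein that rose, differed by 0.11 (adjusted p = 0.00558).

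The astrocyte list held the highest share of lower genes of all the lists read. Of 20 markers 14 fell and 0 rose (median -0.201), against 4.73% lower of all genes. The summed level of the 20 was 6986 to 7830 CPM in Q175 and 8085 to 9725 CPM in Q20, so the groups did not overlap. Abundant members weigh most in such a sum. The sums did not overlap either in the signalling list, at 13927 to 14344 CPM in Q175 and 15269 to 15993 in Q20. Nor did they in the general excitatory, upper-layer and hippocampal lists, lower in Q175, or in the developmental factor list, higher in Q175. Glul, the enzyme that makes glutamine from glutamate, was at 1242 to 1484 CPM (median 1358) in Q175 and 1505 to 1962 (median 1666) in Q20, a difference of -0.30 ± 0.0454 (SE; adjusted p = 2.71e-06). Plpp3, a lipid phosphatase, was at 180.2 to 223 CPM (median 201) in Q175 and 228 to 271 (median 239) in Q20, a difference of -0.27 ± 0.0383 (SE; adjusted p = 7.03e-07). Aldoc, an astrocyte aldolase, was at 598 to 676 CPM (median 651) in Q175 and 732 to 906 (median 787) in Q20, a difference of -0.31 ± 0.0515 (SE; adjusted p = 1.93e-05). The glutamate transporters Slc1a2 (-0.24, adjusted p = 0.0126) and Slc1a3 (-0.17, adjusted p = 0.00693) also fell, as did the gap junction protein Gja1 (-0.21, adjusted p = 7.07e-04) and the potassium channel Kcnj10 (-0.24, adjusted p = 3.00e-04). Aqp4 (-0.02, adjusted p = 0.896), Gfap (-0.09, adjusted p = 0.636) and S100b (0.12, adjusted p = 0.128) did not pass the test. The Atp1b2 and Acsbg1 calls, 2 of the 14, were lost in 2 and 12 of the 16 cases when 1 library was left out. The count was 10 to 14 under the other scalings, without the 6 libraries of lowest correlation and with the choroid plexus level as a covariate.

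Other glial and vascular lists held few calls at 10 months. In the 6-month mice 11 of the 20 microglia markers and 10 of the 26 mature oligodendrocyte genes passed the test. These are counted in either direction, against 9.6% of all genes. Of 26 mature oligodendrocyte and myelin genes 1 rose and 0 fell (median -0.01), with Mbp at -0.09 (adjusted p = 0.53). Of 18 precursor and newly forming oligodendrocyte markers only Enpp6 passed, while Pdgfra (0.00, adjusted p = 0.995) and Bmp4 (0.08, adjusted p = 0.864) did not. Of 20 microglia markers 1 rose, the integrin Itgam by 0.17 (adjusted p = 0.0495), a call lost in 14 of the 16 cases when 1 library was left out, and Cx3cr1 (-0.04, adjusted p = 0.707) did not pass. None of 16 endothelial and 17 mural markers passed in edgeR, with 0 and 1 at an unadjusted p under 0.05. Of 20 reactive glia and complement genes 2 rose and 1 fell: Serpina3n, a protease inhibitor of reactive astrocytes, was at 11.9 to 14.2 CPM (median 13.2) in Q175 and 8.70 to 11.1 (median 10.4) in Q20, a difference of 0.37 ± 0.0737 (SE; adjusted p = 3.66e-04). Of 26 interferon-stimulated and antigen presentation genes 3 rose and 0 fell (median 0.12), with Ifit2 up by 0.23 (adjusted p = 0.00463) and Irf7 by 0.41 (adjusted p = 0.00794). The call of the remaining gene, Psmb8 (0.28), was lost in 9 of the 16 cases when 1 library was left out.

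**Figure D3:**
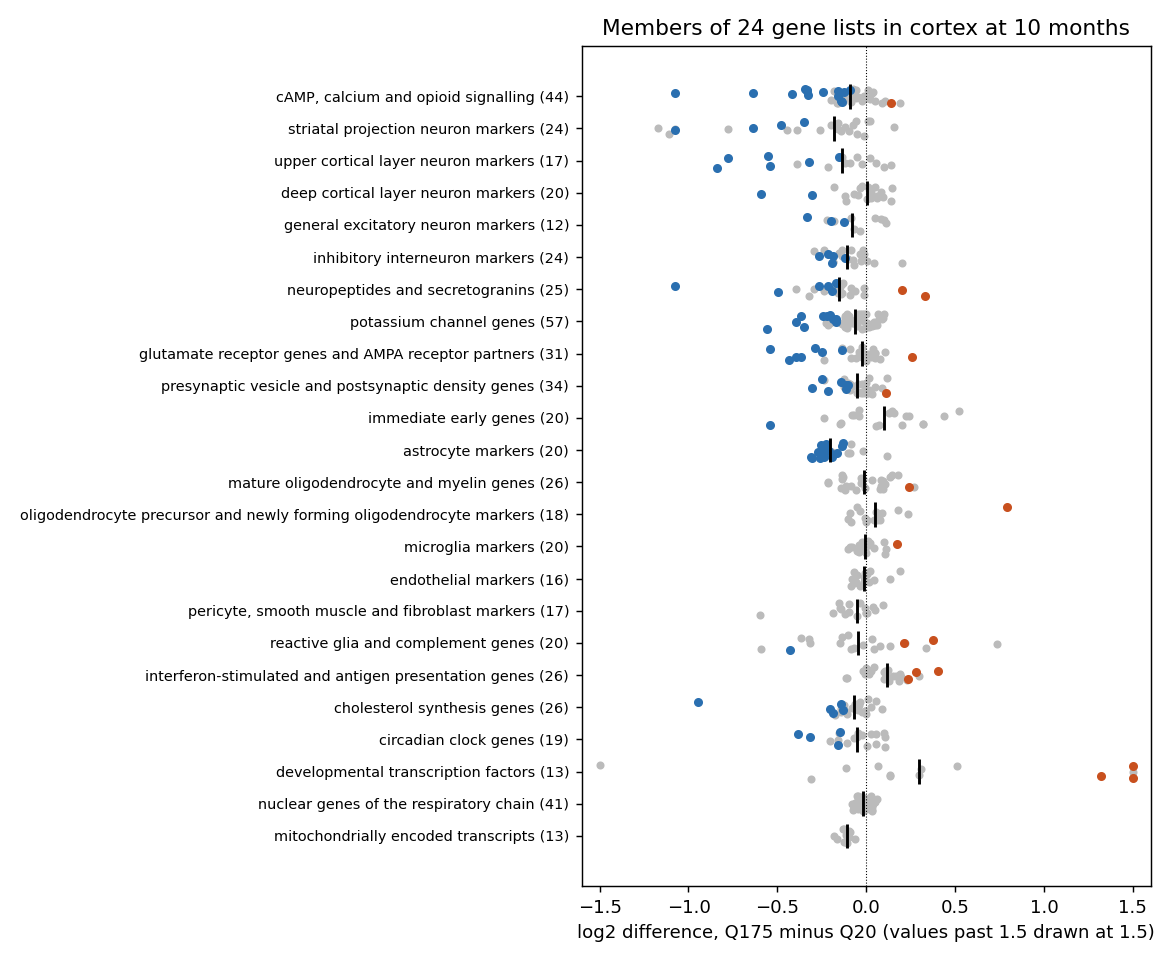
Log2 difference of Q175 minus Q20 (x axis) for each tested member of 24 gene lists (rows, number of members in brackets), with members that fell in blue, those that rose in orange, those that did not pass the test in grey and a bar at the list's median. Values past 1.5 are drawn at 1.5. The astrocyte row has 14 of 20 members in blue and a median of -0.201, while the oligodendrocyte, microglia and endothelial rows centre near 0.

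Choroid plexus transcripts gave the largest differences of all. Of 16 choroid plexus and ependymal markers 10 fell and 0 rose (median -2.397), and the 5 lower genes with the largest difference, Ttr (-3.91), Cldn2 (-3.75), Tmem72 (-3.74), Slc4a5 (-3.73) and Folr1 (-3.12), are all transcripts of that tissue. Ttr, the thyroid hormone carrier of cerebrospinal fluid, was at 5.19 to 82.7 CPM (median 34.4) in Q175 and 20.6 to 1376 (median 610.4) in Q20, a difference of -3.91 ± 1.23 (SE; adjusted p = 0.0397). The summed level of the list was 17.97 to 105 CPM in Q175 and 38.7 to 1521 CPM in Q20, with 6 of 8 Q20 libraries and 3 of 8 wild-type libraries above the highest Q175 library, and the groups overlapped in every member. With wild type as the reference 0 of the 16 passed the test. The Ttr call was lost in 11 of the 16 cases when 1 library was left out. The library names carry an L number of unstated meaning, and L6 holds 4 of 8 Q175 libraries and 1 of 8 Q20 libraries. With that number as a term 0 of the 16 markers passed, and Ttr was at -2.44 (adjusted p = 0.462). The calls of Cldn2, Tmem72, Slc4a5 and Folr1 were lost as well. Of the 166 named genes that passed the test, 43 lost the call with this term. All 30 leading genes kept theirs, but they were picked for the smallest p. With the list's summed level as a covariate, added after seeing the data, 306 genes were higher and 577 lower in place of 495 and 815. Here 48 of the 166 named genes lost the call, and all 30 leading genes kept theirs.

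Of 13 developmental transcription factors 3 rose and 0 fell (median 0.296). Besides Onecut2 and Pax2, Onecut1 was at 0.170 to 1.06 CPM (median 0.687) in Q175 and 0.0455 to 0.354 (median 0.192) in Q20, a difference of 1.88 ± 0.397 (SE; adjusted p = 8.97e-04), with overlapping groups. Shox2 (1.76, adjusted p = 0.0746), En2 (0.51, adjusted p = 0.0571) and Pax6 (0.13, adjusted p = 0.162) did not pass the test. Otx2 (-2.32, adjusted p = 0.0645) belongs to the choroid plexus list as well and did not pass. Of 23 genes of RNA polymerase II and Mediator Polr2a alone passed.

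Of 26 cholesterol synthesis genes 5 fell and 0 rose (median -0.066), and 1 fell with the choroid plexus covariate. The Acat2, Hmgcs1 and Nsdhl calls were lost in 10, 10 and 1 of the 16 cases when 1 library was left out. In the 6-month mice 16 of the 26 passed the test, counted in either direction, against 9.6% of all genes. Of 22 fatty acid genes 4 fell, with the desaturases Fads1 at 183 to 206 CPM (median 195) in Q175 and 213 to 249 (median 227) in Q20, a difference of -0.25 ± 0.0286 (SE; adjusted p = 8.57e-09), and Fads2 at -0.20 (adjusted p = 8.92e-05). Of 19 clock genes 4 fell, all output genes or repressors. Dbp fell by 0.39 (adjusted p = 0.0018), Per3 fell by 0.32 (adjusted p = 0.00131), Tef fell by 0.15 (adjusted p = 0.00946), and Hlf fell by 0.16 (adjusted p = 0.0132). Collection time was not analysed here. Of 20 immediate early genes only Nptx2 passed (median 0.10), with Fos at 0.44 (adjusted p = 0.347) and Arc at -0.04 (adjusted p = 0.962). Of 26 unfolded protein and amino acid stress genes 2 fell and 1 rose, and of 23 heat shock genes 1 rose and 1, Hspa1b, fell by 0.74 (adjusted p = 0.0181). The Hspa1b call was lost without the Q20 library male 2 (adjusted p = 0.0897). None of 41 nuclear respiratory chain genes (median -0.016) and none of 13 mitochondrially encoded transcripts (median -0.110) passed in edgeR, with 0 and 1 at an unadjusted p under 0.05, and all 13 mitochondrial transcripts had a difference below 0.

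Sodium and calcium channel genes held 4 lower and 1 higher of 34 (median -0.009), with Ryr1, an intracellular calcium release channel, at -0.63 (adjusted p = 4.87e-05) and the sodium leak channel Nalcn, which rose, at 0.16 (adjusted p = 0.0305). Of 19 GABA receptor and transporter genes Gabrd and Slc6a11, a GABA transporter of astrocytes (-0.17, adjusted p = 0.00247), fell. Of 35 monoamine, acetylcholine and related receptors 3 rose and 3 fell, with the serotonin receptor Htr5a at 0.22 (adjusted p = 0.00158) and the histamine receptor Hrh3 at -0.27 (adjusted p = 0.00475). Of 11 neurotrophin genes Sorcs3, a sorting receptor, fell (-0.25, adjusted p = 4.88e-04), and Bdnf did not pass (-0.15, adjusted p = 0.427). Markers of tissue next to the cortex were read too: of 16 hippocampal markers Wfs1 and Trpc6 fell, of 16 thalamic markers Pdp1 and Rgs16 fell, of 7 liver transcripts Ttr fell, and of 7 blood cell genes 0 passed in edgeR (median 0.155, with 0 at an unadjusted p under 0.05). Of 26 huntingtin and partner genes 4 fell and 1 rose. Of 17 genes on a list of p53 and its targets 1 fell, and Trp53, which encodes p53 itself, rose. Of 17 mismatch repair genes Mlh3 rose and of 23 clustered protocadherins Pcdhb12 rose. The Mlh3, Pcdhb12 and Nalcn calls were lost in 11, 9 and 5 of the 16 cases when 1 library was left out.

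The same contrast was measured in other mice at 6 and 2 months. Knock-in libraries of 6 months carry names of another form than those of 2 and 10 months. Their leading numbers run in a separate block for each genotype, and the meaning of the blocks is not stated. Genotype and block therefore cannot be told apart at 6 months. At 6 months 1691 of 17611 genes (9.6%) passed the test, and at 2 months 0 of 17194 (0%) in edgeR, with 567 at an unadjusted p under 0.05. Of the 17108 genes tested at both later ages, 477 were called at both, 36.5% of the 10-month calls and 28.3% of the 6-month calls, and all 477 had the same direction. Among all 10-month calls 91.2% had the same sign at 6 months, against 61.1% of all genes tested at both ages. For the 10-month lower genes the median difference was -0.295 at that age, -0.132 in the 6-month mice and 0.001 in the youngest. For the higher genes it was 0.192, 0.088 and 0.010, in the same order. The values at 10 months are those by which the genes were called, so they set no scale for the other ages. Of the 30 leading genes, 14 lower and 12 higher genes were called the same way at 6 months. The number called at each age also depends on the spread between libraries, which was smaller at 6 months (biological coefficient of variation 0.069) than at 10 (0.098) or 2 months (0.115).

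The change with age was tested directly. From 6 to 10 months, age cannot be told apart from the form of the library names given above. From 6 to 10 months the Q175 difference changed in 13 of 17834 genes (0.0729%), 10 towards lower and 3 towards higher. Plk5 went from -0.59 at 6 months to -1.71 at 10 months, a change of -1.11 ± 0.164 (adjusted p = 1.45e-05). Onecut2 went from 0.39 to 1.32, a change of 0.94 ± 0.155 (adjusted p = 2.04e-04). Pax2 had no detectable difference at 6 months (0.20, adjusted p = 0.647) and changed by 2.38 ± 0.406 (adjusted p = 3.15e-04). The other named genes whose difference grew downwards were Tnfrsf8, Jsrp1, a protein of the muscle calcium-release site, Mfge8, a secreted bridge for phagocytosis made by astrocytes, Evc2, a ciliary protein, Myh7, Wfs1, Arhgap4 and Slc9a5. Mfge8 was at 90.3 to 114 CPM (median 102) in Q175 and 123 to 162 (median 134) in Q20 at 10 months, and its difference went from -0.08 to -0.43 (adjusted p of the change = 0.0167). Nrip3 went from -0.20 at 6 months to 0.10 at 10 months, where it did not pass the test (adjusted p = 0.128).

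From 2 to 10 months the difference changed in 369 of 17592 genes (2.1%), 280 towards lower and 89 towards higher. Genes with the smallest p values included Plk5, Hipk4, Gabrd, Lamp5 and Gsg1l on the lower side and Onecut2, Gng4, Serpina3n and Dpysl3 on the higher side. The Gabrd difference went from 0.01 through -0.32 to -0.49 over the 3 ages. Gng4 began below 0, at -0.41 at 2 months (adjusted p = 0.402), and stood at 0.38 at 10 months, a change of 0.79 ± 0.122 (adjusted p = 4.26e-06). Enpp6 was already at 0.67 at 6 months and at 0.79 at 10 months, and that change did not pass the test (adjusted p = 0.765).

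**Figure D4:**
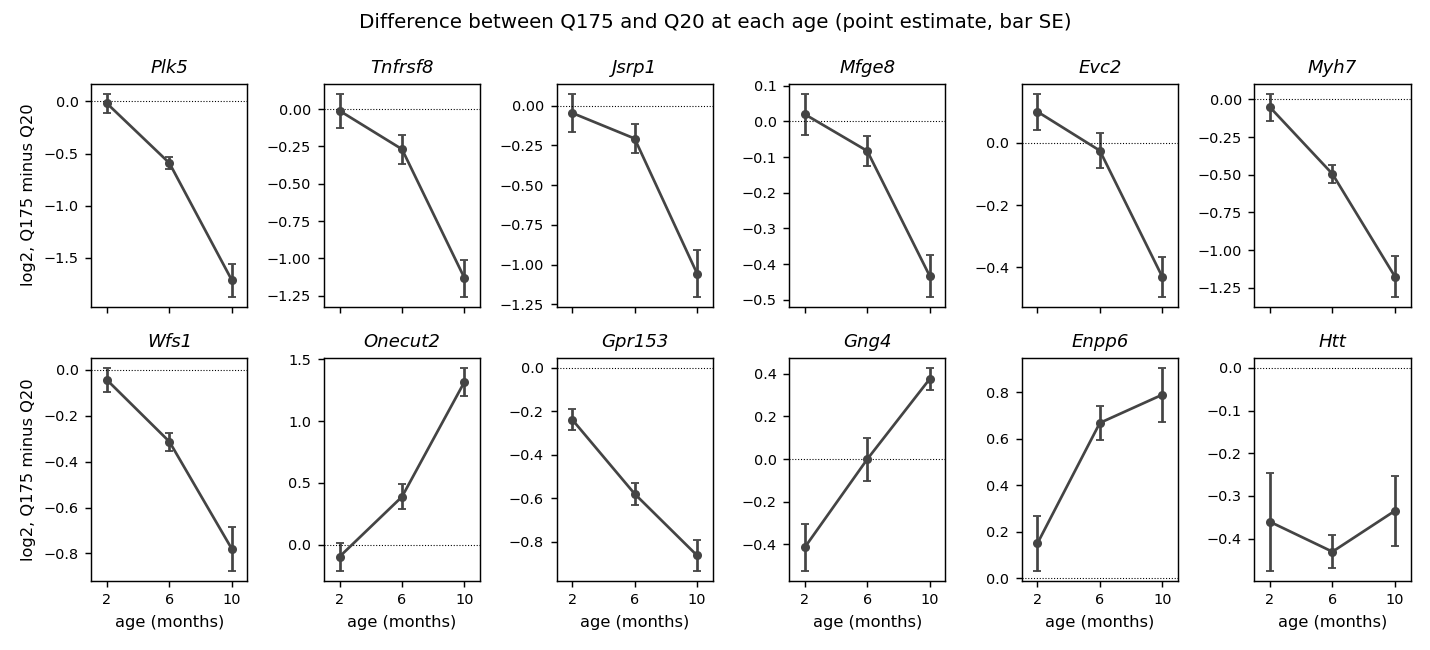
Log2 difference of Q175 minus Q20 with its SE (y axis, a scale for each panel) at 2, 6 and 10 months (x axis) for 12 genes. Lines join different mice at each age. Plk5 goes to -1.71 and Onecut2 to 1.32 by 10 months, while Htt is at -0.36, -0.43 and -0.33 in that order.

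Against the same Q20 libraries, Q140 differed in 22 genes (0.128%), Q111 in 4 (0.0232%), Q80 in 4 (0.0232%), Q92 in 0 (0%, with 893 genes at an unadjusted p under 0.05 in edgeR) and wild type in 1 (0.00581%). These comparisons share the Q20 libraries, so each gene's values are given side by side. Of the 30 leading genes 0 passed the test of wild type against Q20, and 3 lower and 3 higher genes passed that of Q140 against Q20. Plk5 averaged 18.7 CPM in wild type, 16.2 in Q20, 10.9 in Q140 and 4.96 in Q175. Gpr153 averaged 22.9, 21.5, 16.98 and 11.8 CPM in that order. Onecut2 averaged 5.12, 5.29, 5.59 and 13.2 CPM, and Q140 differed from Q20 by 0.08 (adjusted p = 1). Q175 was tested directly against Q140, and 542 genes (3.15%) differed, 152 higher and 390 lower. Onecut2 differed by 1.24 (adjusted p = 4.63e-11) and Plk5 by -1.14 (adjusted p = 3.27e-06) in that comparison. Enpp6 (0.19, adjusted p = 0.431) and Penk (-0.43, adjusted p = 0.22) did not pass.

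**Figure D5:**
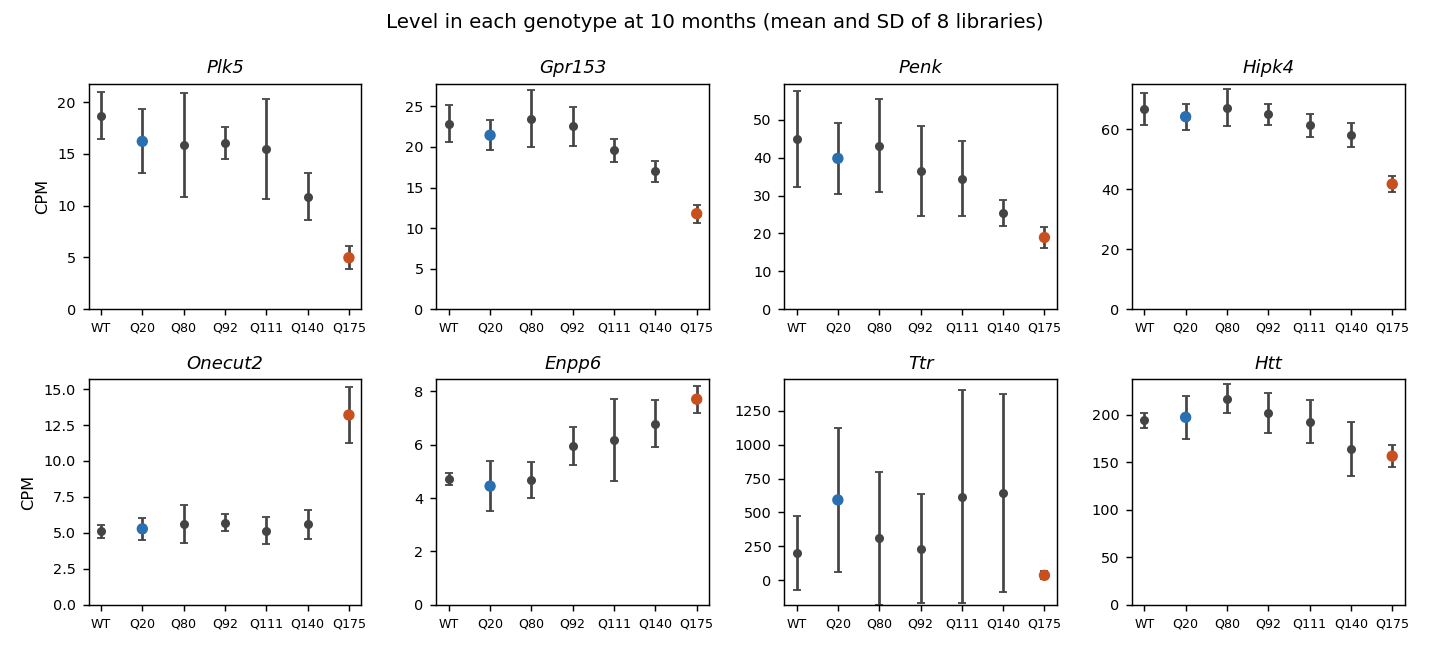
Mean level in CPM with the SD of 8 libraries (y axis) in each genotype at 10 months (x axis, wild type and then rising CAG length) for 8 genes, with Q20 in blue and Q175 in orange. Plk5 and Gpr153 are lower in Q140 than in Q20 and lowest in Q175, Onecut2 is near 5 CPM in every genotype but Q175, and Ttr has an SD above its mean in 5 of the 7 genotypes.

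Females and males showed no detectable difference in the response. The test of the difference between the sexes called 0 of 17219 genes (0%) in edgeR, with 501 at an unadjusted p under 0.05. Among the leading genes Plk5 differed by -1.86 in females and -1.57 in males, and Onecut2 by 1.33 and 1.31. With 4 libraries a side in each sex, this test has less power than the main comparison. The names of the 4 libraries of each genotype and sex share an identifier of unstated meaning. Sex and that identifier therefore cannot be told apart within Q175 or Q20.

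The genes around Htt were counted because the allele is tied to its locus. Of 161 genes tested within 10 Mb of Htt, Htt itself not counted, 6 were higher and 13 lower, 11.8% against 7.61% of all genes, and over the whole of chromosome 5 the share was 7.8%. Among them were Wfs1, Evc2 and Otof, which are named above, Fgfr3, a growth factor receptor of astrocytes (-0.22, adjusted p = 0.00202), and Msantd1 (-0.48, adjusted p = 0.00635), whose annotated span overlaps that of Htt, so that their reads may not be separable. Both groups carry a knock-in copy at this locus, and whether the flanking sequence differs between the alleles was not tested.

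Promoter windows were read for 3 short motifs. Windows from 250 bases before to 50 after the start of transcription (RefSeq, GRCm38.p6) were matched by symbol for 393 of 495 higher genes, 583 of 815 lower genes and 12530 of 17219 genes tested. The median GC content was 59.3%, 61.0% and 60.3%. The cAMP response element TGACGTCA, searched on both strands, stood in 2.8% of the windows of higher genes, 2.4% of those of lower genes and 3.0% of all. Its core TGACG, which the longer motif contains, stood in 28.2%, 21.4% and 29.6%, and the E-box CACGTG in 9.4%, 7.5% and 9.6%. The longer motif was looked at because 14 of the 44 genes on the cAMP, calcium and opioid list were lower. It was no more frequent in the windows of lower genes than in all. Named genes that passed the test and have it upstream of the start are shown. The display leaves out the genes of a chromosome and may not hold every match. The motif is in capitals, and each run ends at or before the base ahead of the start:
Cbx8: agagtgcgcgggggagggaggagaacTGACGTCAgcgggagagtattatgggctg
Chgb: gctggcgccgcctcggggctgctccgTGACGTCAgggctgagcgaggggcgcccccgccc
Htt: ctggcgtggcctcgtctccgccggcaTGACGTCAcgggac
Hlf: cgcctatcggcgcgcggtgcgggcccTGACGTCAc
Cartpt: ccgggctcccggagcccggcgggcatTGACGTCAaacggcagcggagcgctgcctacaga
Kif5c: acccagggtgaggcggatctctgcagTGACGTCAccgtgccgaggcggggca
They lie at chr11:119040914-119040968 (minus strand) for Cbx8, chr2:132781544-132781603 (plus strand) for Chgb, chr5:34761700-34761739 (plus strand) for Htt, chr11:90390918-90390952 (minus strand) for Hlf, chr13:99900762-99900821 (minus strand) for Cartpt and chr2:49619234-49619285 (plus strand) for Kif5c. Cbx8 rose (0.54), whereas Chgb (-0.17), Htt (-0.33), Hlf (-0.16), Cartpt (-0.50) and Kif5c (-0.16) fell. The Kif5c and Cartpt calls were lost in 8 and 2 of the 16 cases when 1 library was left out. A match describes letters in a window and not binding.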

How the data were processed

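Each library is polyadenylated RNA from flash-frozen cortex, per the labels' protocols. The authors deposited estimated counts per gene, of which 17.7% are not whole, and FPKM values, scaled by gene length and library size, for the same libraries. The submitters' processing notes list CASAVA 1.8.2. For the aligner, build and annotation, the authors' choices were not given in the sources used here. Symbols and positions come from GENCODE M21 (GRCm38), which matched 37607 of 39179 gene IDs, and IDs without a symbol held 0.318% of counts. Totals of 31271733 to 43744138 bound counting error, and tests rest on the spread between libraries. No pair of libraries within a group was alike within counting noise.

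Counts were rounded and filtered with filterByExpr by genotype (minimum count 10, minimum total 15), scaled by TMM and tested with the two-sided quasi-likelihood test of edgeR 4.0.16 in R 4.3.3, over the 56 libraries of 10 months with sex as a covariate and Benjamini-Hochberg adjustment over all genes tested. The standard error is the log2 difference over the square root of F. The scripts were tested on simulated data. Alternatives were DESeq2 1.42.0, limma 3.58.1 on log2 FPKM with pseudocounts of 0.1 and 1, other scalings, filters, covariates and references, and leaving out each library. Genes named are the 15 each way of smallest p, the 5 each way of largest difference at a mean of at least 1 CPM, Htt, up to 4 members of smallest p and all called members of each list, and the 5 each way of smallest p in each interaction, without clone-named models. A few of these genes are not reported here. Defining markers that did not pass, Msantd1, Arhgap4 and Slc9a5 were named after their values were seen. The gene lists, the comparison and the tests were chosen with earlier results of these data known.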

Additional observations from a re-analysis of the deposited data

Results flagged for a closer look

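In 53 genes named in the text, each group of 8 libraries was read for a highest or lowest library far from the other 7, and 15 of 106 groups held one. Chance flags about 1 in 20 groups. On the high side, Arr3 was at 2.191 CPM in Q20 female 1 (next 1.778), Gsg1l at 100.4 in Q20 male 3 (next 88.77) and Dpysl3 at 41.03 in Q20 male 4 (next 37.7). Q20 female 3 stood high in Tnfrsf8 at 4.718 CPM (next 3.363) and in Arpp21 at 413.9 (next 391.0). In Q175, Camkk2 was at 233.9 CPM in male 4 (next 217.2), Met at 10.05 in female 4 (next 8.377), Ppp1r1b at 62.33 in female 3 (next 52.19) and Sspo at 8.586 in male 1 (next 5.088). The same Q175 male 1 stood low in Jsrp1 at 0.7551 CPM (next 1.221).

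The Q20 library male 2 was apart in 3 genes, low in Htt at 146.1 CPM (next 185.8) and in Onecut2 at 3.763 (next 5.069), and high in the heat shock gene Hspa1b at 17.78 (next 10.8). It also had the lowest correlation of the 16 libraries, 0.9862, and the highest Ttr level, 1376 CPM. Htt was likewise low in Q175 male 2 at 130.6 CPM (next 155.0), and Nptxr was low in Q20 male 1 at 698.2 CPM (next 774.6).

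The difference of Q175 from Q20 changed between 2 and 10 months by -1.693 on the log2 scale in Plk5, -0.6348 in Hipk4, -0.4992 in Gabrd, -0.6024 in Lamp5 and -0.4444 in Gsg1l. It changed by 1.416 in Onecut2, 0.7863 in Gng4, 0.6194 in Serpina3n and 0.3814 in Dpysl3, with adjusted p from edgeR between 5.06e-11 for Plk5 and 1.77e-05 for Dpysl3. Between 6 and 10 months it changed by -1.114 in Plk5, -0.8592 in Tnfrsf8, -0.8472 in Jsrp1, -0.345 in Mfge8 and -0.4013 in Evc2, and by 0.9393 in Onecut2, 2.38 in Pax2 and 0.305 in Nrip3. The adjusted p ranged from 1.45e-05 for Plk5 to 0.0472 for Nrip3.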

How the results depend on the processing

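Of 166 named genes that passed the test, 48 lost the call when at least 1 of the 16 libraries was left out, and 119 under at least 1 other alternative, with no change of direction. These genes were picked for passing the test in the same libraries, so the unchanged direction is not separate support. Leaving out each library in turn gave 368 (without Q20 female 4) to 478 higher genes and 671 (without Q175 female 1) to 821 lower genes. DESeq2 gave 543 higher and 892 lower genes. With the L number of the library names as a term 337 genes were higher and 594 lower, and 43 of the 166 named genes lost the call; lower cholesterol synthesis and interneuron genes went from 5 to 3 in each list. The cause was not tested. Limma gave 876 higher genes on log2(FPKM + 0.1) and 909 on log2(FPKM + 1), and 520 lower genes with no filter. Without the libraries of correlation under 0.99, which leaves 3 of 8 a side, 99 genes were higher and 239 lower. Females alone gave 150 higher and 365 lower genes, and males alone 42 and 144; both have 4 libraries a side. Higher genes numbered 908 without the 6 libraries of lowest correlation, 1001 with library totals and 306 with the choroid plexus covariate, all 3 added after seeing the data. With the replicate number as a replicate block 480 genes were higher and 804 lower. Same-numbered libraries deviated together with correlations of -0.085 to 0.345, and 3 of 8 were highest with their own number. So few values cannot decide whether the numbers pair the libraries.

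The count of genes changing from 6 to 10 months, 13, was 50 with only Q175 and Q20 libraries, 28 with the replicate block and 0 without the low-correlation libraries. That from 2 to 10 months, 369, was 756 with only Q175 and Q20 libraries and 127 without the low-correlation libraries. The test between the sexes gave 1 gene without those libraries. The cause of these moves was not tested, beyond the fewer libraries in the settings that leave some out. Depth limits genes near 1 CPM, such as Pax2 and Arr3.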
